A study of Homo sapiens with 15 samples.

Results

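The corepressor complexes Sin3, NuRD, CoREST, NCoR and PRC2 were followed at the RNA level in 3 acute myeloid leukemia (AML) lines after knockdown of *RNF5*, which encodes a membrane-anchored E3 ubiquitin ligase. The 39 genes were those for subunits of these complexes other than the histone deacetylases (HDACs), taken by symbol from the 57820 gene identifiers of the deposited tables. None was at 0 throughout a line, so all 39 were measured in each of the 3 lines. They comprised 14 Sin3 subunits, 2 histone-binding subunits that Sin3, NuRD and PRC2 share, 9 NuRD subunits, 8 PRC2 subunits, 4 subunits of CoREST and NCoR, and 2 splicing-associated partners of SAP18. The series compared cells transduced with the empty lentiviral vector pLKO with cells given an shRNA that targets *RNF5* (shRNF5). The 15 libraries were 3 of pLKO and 2 of shRNF5 for MOLM-13, 2 of each for U937 and 3 of each for HL-60. These are established human myeloid leukemia lines, and no group was treated with a drug. The labels do not say which *RNF5* hairpin was sequenced. They place the harvest 7 days after knockdown in the sample records and 5 days in the series design. They do not state that replicates were separate transductions, so p-values measure the spread between these libraries, which may be technical.

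Corepressor complexes carry no DNA sequence preference of their own in most cases and are brought to promoters by transcription factors. Sin3 and NuRD hold HDAC1 and HDAC2 and remove acetyl groups from histones, NuRD also moves nucleosomes through its CHD ATPase, CoREST pairs HDACs with the lysine demethylase KDM1A (LSD1), NCoR carries HDAC3, and PRC2 methylates histone H3 on lysine 27 through EZH1 or EZH2. RBBP4 and RBBP7 are closely related WD40-repeat proteins that grip histone tails in several of these complexes. In myeloid leukemia, EZH2 and KDM1A are known for their part in holding differentiation genes silent.

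The knockdown was seen in every line. *RNF5* stood at 1223, 1017 and 1020 normalized read counts in the MOLM-13 pLKO libraries and at 76 and 81 with shRNF5 (log2 fold change -3.77, limma adjusted p = 0.000336). The change was -3.64 in U937 (adjusted p = 0.00287) and -3.25 in HL-60 (adjusted p = 0.00125), and no shRNF5 library overlapped a pLKO library of its line. Depth was estimated from the steps between neighbouring values, at 9700000 to 63200000 counted reads per library. In MOLM-13 depth moved with the construct, with 9700000 to 15300000 reads in pLKO libraries and 24400000 and 63200000 in shRNF5 libraries. The leukocyte and myeloid genes *PTPRC*, *CD33*, *SPI1* and *CEBPA* were present in all libraries. *MPO* lay between 105563 and 207430 in HL-60 but between 32 and 96 in U937. *CD3E*, *EPCAM* and *ALB* were listed at 0 in all 15 libraries, while U937 held 15 to 234 for *COL1A1*, with the highest value in pLKO replicate 2. Every value is the authors' normalized read count. Each line was scaled on its own, so no level was tested between lines, and a fold change is on the log2(value + 1) scale. A gene was called when its adjusted p was under 0.1 and its absolute log2 fold change over 0.4.

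The promoter windows of the genes that were called in opposite directions in U937 and HL-60 are shown first, since the later sections turn on them. They come from RefSeq on GRCh38.p14, whereas the deposited files use hg19, and they cover the 250 bases before the annotated start, 5′ to 3′ on the gene's strand. Of the 39 genes, 38 matched that table, all but *SAP18*. *ARID4A* is at chr14:58298305-58298554 on the forward strand, *PHF1* at chr6:33410764-33411013 on the forward strand, and *SAP130* has a pair of entries on the reverse strand, at chr2:128027307-128027556 and chr2:128028060-128028309, printed in that order. Capitals mark CCAAT or its reverse complement ATTGG, the words of the factor NF-Y.
ARID4A: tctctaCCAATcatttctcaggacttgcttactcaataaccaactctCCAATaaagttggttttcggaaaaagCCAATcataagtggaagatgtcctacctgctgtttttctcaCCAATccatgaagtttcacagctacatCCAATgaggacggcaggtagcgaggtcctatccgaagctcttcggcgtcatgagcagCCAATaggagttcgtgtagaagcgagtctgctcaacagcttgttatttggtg
PHF1: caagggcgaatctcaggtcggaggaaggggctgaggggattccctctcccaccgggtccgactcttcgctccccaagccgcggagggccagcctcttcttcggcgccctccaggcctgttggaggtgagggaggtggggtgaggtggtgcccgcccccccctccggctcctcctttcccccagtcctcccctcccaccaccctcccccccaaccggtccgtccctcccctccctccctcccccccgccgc
SAP130, first entry: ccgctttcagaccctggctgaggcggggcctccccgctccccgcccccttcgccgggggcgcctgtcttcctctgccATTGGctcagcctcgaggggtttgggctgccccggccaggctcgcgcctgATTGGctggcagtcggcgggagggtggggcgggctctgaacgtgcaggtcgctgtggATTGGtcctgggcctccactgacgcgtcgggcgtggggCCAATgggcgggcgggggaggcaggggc
SAP130, second entry: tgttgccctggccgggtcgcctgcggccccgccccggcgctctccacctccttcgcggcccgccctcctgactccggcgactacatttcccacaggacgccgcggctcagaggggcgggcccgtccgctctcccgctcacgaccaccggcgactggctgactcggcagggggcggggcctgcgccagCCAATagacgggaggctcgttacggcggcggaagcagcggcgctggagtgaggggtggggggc
The *ARID4A* window held 6 such words at a GC content of 45.2%, the *SAP130* windows held 4 and 1 at 74.0% and 75.2%, and the *PHF1* window held none at 72.4%. Over 300-base windows that run to 50 bases past the start, CCAAT on either strand was found in 26 of 57 windows of the 39 genes (45.6%) and in 34.6% of the 35116 windows of the table. The ETS word CCGGAAG was in 11 of the 57 (19.3%) and in 10.3% of all windows. At least 1 of the E2F words TTTGGCGC, TTTCCCGC and TTTGGCGG was in 6 of the 57 (10.5%) and in 2.9% of all windows, and no word contains another. Those 6 windows belonged to *EZH1*, *EZH2*, *SUZ12*, *MTF2*, *PHF19* and *SIN3A*. The upstream 250 bases had a median GC content of 68.4% for the windows of the 39 genes and 58.0% over all windows, and these shares were not matched for it. A word in a window is a description and says nothing about binding.

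Most subunit transcripts were not called, and the share that was lay near that of all genes in each line. In MOLM-13, 1 of 39 genes was called, *SAP18*, against 2.04% of all 13026 genes tested (1.03% up and 1.01% down). In U937, 5 of 39 were called (12.8%), against 15.7% of 13165 genes (6.92% up and 8.74% down). In HL-60, 10 of 39 were called (25.6%), against 25.9% of 12570 genes (13.6% up and 12.3% down). The U937 calls were a rise of *SAP130* and falls of *SAP18*, *ARID4A*, *EZH1* and *PHF1*. The HL-60 calls were rises of *ARID4A*, *MORF4L1*, *MBD3*, *EED* and *PHF1* and falls of *SAP18*, *SAP130*, *GATAD2A*, *EZH1* and *RCOR1*. The median log2 fold change over the 39 genes was -0.02, 0.06 and -0.06 in MOLM-13, U937 and HL-60, beside 0.01, 0.00 and 0.00 over all genes tested. Groups that did not overlap were found for 17 of 39 genes in MOLM-13 (38.7% of all genes), 23 in U937 (59.2%) and 16 in HL-60 (38.5%). The 5 U937 calls were lost when the mean-variance trend of the test was dropped, and a correction for transcript length ended those of *MORF4L1*, *GATAD2A*, *EZH1*, *EED* and *RCOR1* in HL-60, which left 6 calls there with the gain of *ARID4B*. In all, 29 of the 39 were called in no line, 5 in 1 line, 4 in 2 lines and *SAP18* alone in all 3. These counts come from the fits per line, as do the calls below. With 1 fit over all 15 libraries, U937 had 16 calls and HL-60 had 8, without *EZH1* and *RCOR1*. The calls gained in U937 were falls of *MTA1* and *MTF2* and rises of *SIN3A*, *SAP30*, *MORF4L1*, *MTA2*, *MBD2*, *CHD4*, *GATAD2A*, *JARID2* and *PHF19*.

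**Figure D1:**
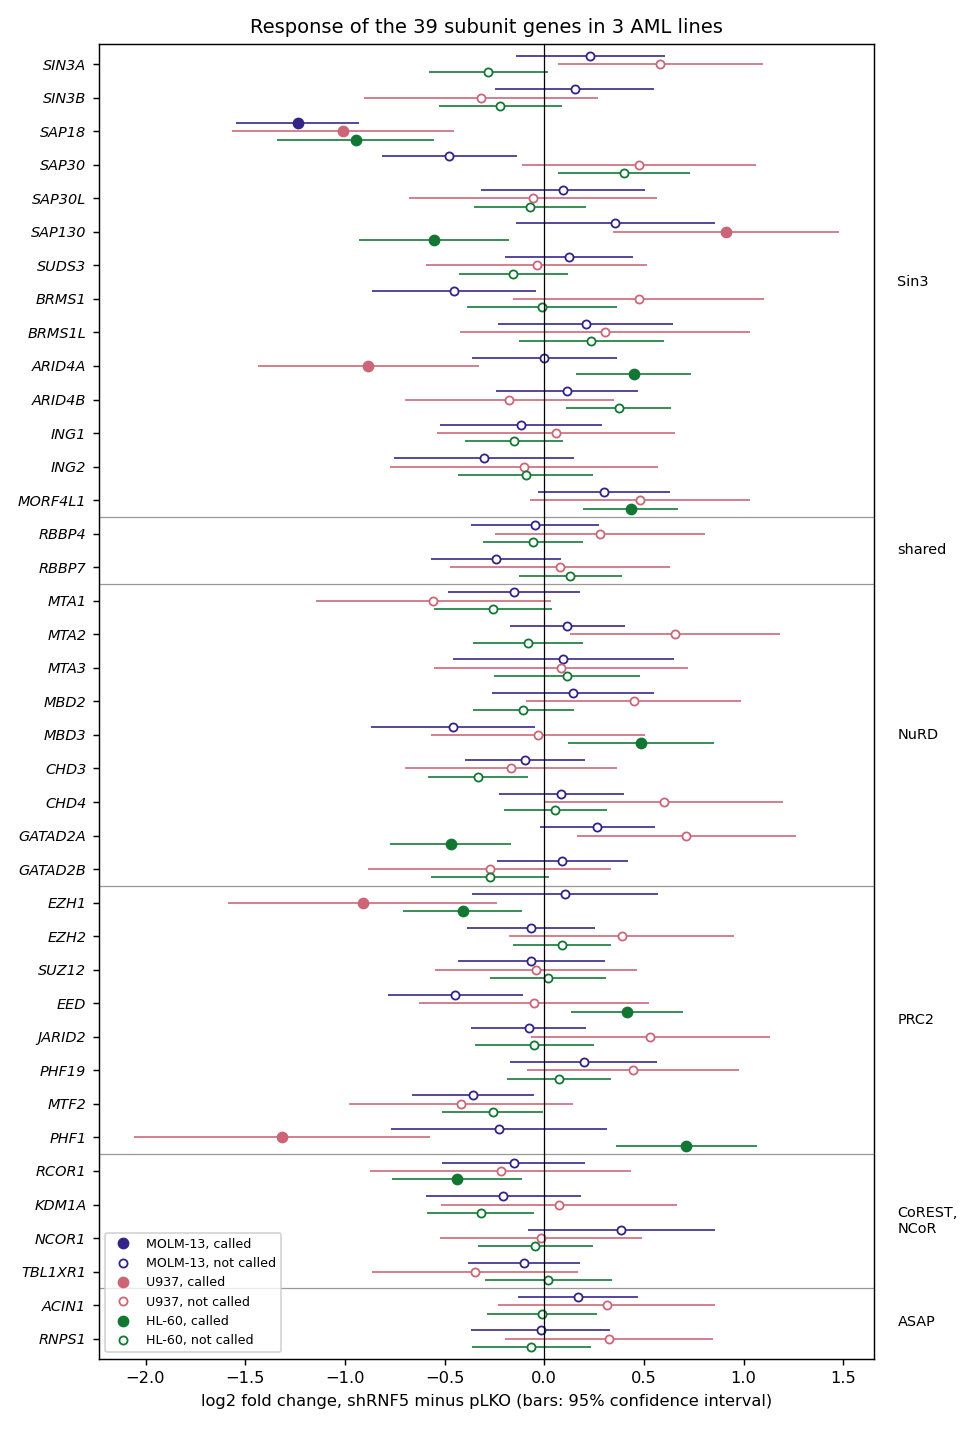
Log2 fold change of the 39 subunit genes, shRNF5 minus pLKO, on the horizontal axis, with 1 row per gene and 1 colour per line. Bars are 95% confidence intervals from limma and filled points are called, so a reader should see the 3 filled points of *SAP18* on the left and, for most other genes, bars that cross 0.

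*SAP18*, a small Sin3-associated protein that is also part of the splicing-related ASAP complex, was the 1 gene of the 39 called in all 3 lines, and it fell in each. The study singled out *SAP18* from these same libraries, so its fall here is not independent evidence. The study also measured *SAP18* by RT-qPCR in independent experiments. Its position is chromosome 13, 21714258 to 21723236, forward strand (GRCh37, also for the positions below). In MOLM-13 it stood at 4517, 4298 and 4009 with pLKO and at 1737 and 1887 with shRNF5 (log2 fold change -1.24 ± 0.13 SE, adjusted p = 0.0255). In U937 the values were 1343 and 1675 with pLKO and 721 and 768 with shRNF5 (-1.01 ± 0.25 SE, adjusted p = 0.0434). In HL-60 they were 2009, 2358 and 2028 with pLKO and 845, 1451 and 1093 with shRNF5 (-0.95 ± 0.18 SE, adjusted p = 0.00661). Every shRNF5 library lay below every pLKO library of its line. The HL-60 call held without each library in turn. The MOLM-13 call was lost without pLKO replicate 2, shRNF5 replicate 1 or shRNF5 replicate 2 (adjusted p = 0.126, 0.243 and 0.209), where the fitted log2 values were -1.23, -1.18 and -1.30. The second of these values is the one without shRNF5 replicate 1, the library of 63200000 reads. The U937 call was lost without pLKO replicate 2, shRNF5 replicate 1 or shRNF5 replicate 3 (adjusted p = 0.256, 0.6 and 0.243), with a log2 fold change between -1.17 and -0.96. It was also lost when the mean-variance trend was dropped (adjusted p = 0.133). The ASAP partners *ACIN1*, which encodes acinus, and *RNPS1*, an RNA-binding splicing regulator, were called in no line. Their log2 fold changes were 0.17 and -0.02 in MOLM-13, 0.31 and 0.32 in U937, and -0.01 and -0.06 in HL-60.

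Besides *SAP18*, 3 genes had pLKO and shRNF5 libraries apart in the same direction in all 3 lines. *MTA1*, a NuRD scaffold, and *MTF2*, an accessory subunit of PRC2, were lower with shRNF5, and *MORF4L1*, a chromodomain protein of Sin3 and of the NuA4 acetyltransferase, was higher. Over the 11072 genes measured in all 3 lines, 3.5% showed such a pattern, against 4 of these 39. *MORF4L1* was called in HL-60 only, where it rose from 3616, 3884 and 3579 with pLKO to 5071, 4865 and 5015 with shRNF5 (0.43 ± 0.11 SE, adjusted p = 0.0207). This call held without each library but not with a correction for transcript length, which gave 0.35. In MOLM-13 *MORF4L1* stood at 4253, 5086 and 5277 with pLKO and at 6023 and 5916 with shRNF5 (0.30, adjusted p = 0.332). In U937 it stood at 4919 and 6439 with pLKO and at 7527 and 8199 with shRNF5 (0.48, adjusted p = 0.242). *MORF4L1* lies on chromosome 15 of GRCh37 from 79102829 to 79190481, and the pseudogene *MORF4L1P1* was listed at 91 to 267 across libraries, so some reads could be shared. *MTA1* did not pass the test in any line, with log2 fold changes of -0.15, -0.56 and -0.26 in MOLM-13, U937 and HL-60. *MTF2* did not pass it either, at -0.36, -0.42 and -0.26.

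**Figure D2:**
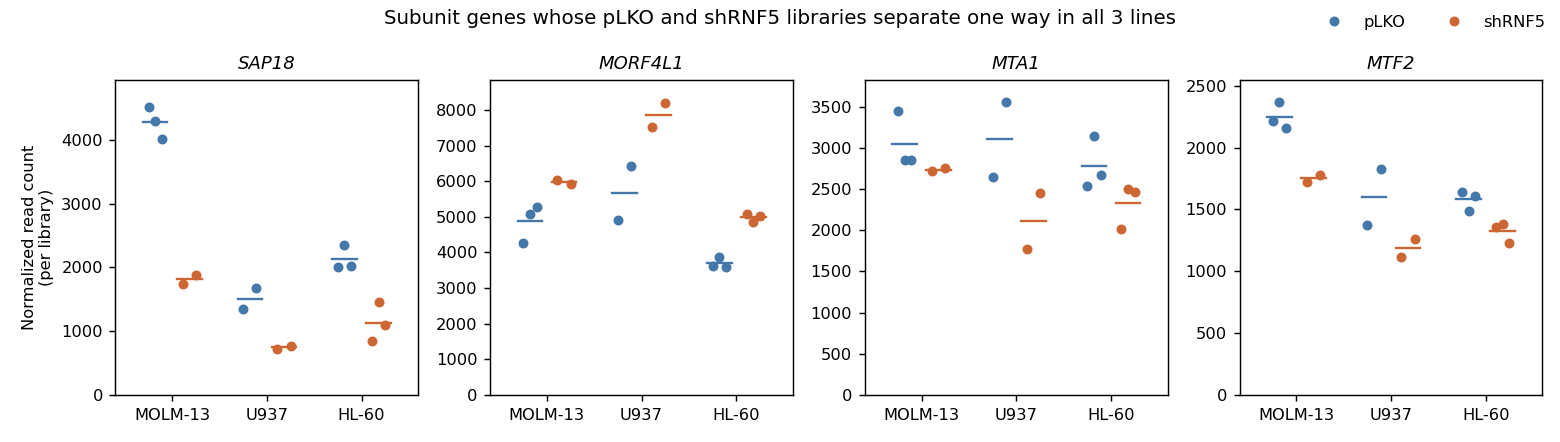
Normalized read count per library, from 0 on the vertical axis, for *SAP18*, *MORF4L1*, *MTA1* and *MTF2* in MOLM-13, U937 and HL-60. Points are libraries and bars are group means. The shRNF5 points lie wholly below the pLKO points of their line for *SAP18*, *MTA1* and *MTF2* and wholly above them for *MORF4L1*.

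The shared histone-binding subunits were not called in any line. *RBBP4*, on chromosome 1 of GRCh37 from 33116743 to 33151812, stood at 6930, 7981 and 6745 in MOLM-13 with pLKO and at 7382 and 6584 with shRNF5. In U937 it stood at 6225 and 7029 with pLKO and at 8020 and 8028 with shRNF5. In HL-60 it stood at 6940, 6865 and 6973 with pLKO and at 7083, 6599 and 6317 with shRNF5. The groups overlapped in MOLM-13 and HL-60, and in U937 both shRNF5 libraries were above both pLKO libraries. The 95% confidence interval of the log2 fold change ran from -0.37 to 0.28 in MOLM-13, from -0.25 to 0.81 in U937 and from -0.31 to 0.19 in HL-60, so a change of over 0.4 lay outside it in MOLM-13 and HL-60 but not in U937. An exon of *RBBP4* shares 1955 bases with *SYNC* on the opposite strand, and whether counting used strand is not given in the sources used here. *RBBP7* stood at 4043, 4675 and 3866 with pLKO and 3662 and 3407 with shRNF5 in MOLM-13 (-0.24, adjusted p = 0.407). It stood at 5814 and 7557 with pLKO and 6781 and 7219 with shRNF5 in U937 (0.08, adjusted p = 0.868). It stood at 3463, 4107 and 3697 with pLKO and 4007, 4381 and 3932 with shRNF5 in HL-60 (0.13, adjusted p = 0.458). *RBBP7* was lower in both MOLM-13 shRNF5 libraries than in any pLKO library there, and the groups overlapped in the other lines.

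The scaffold *SIN3A*, which joins HDACs to transcription factors, passed the test in no line, but its response differed between U937 and HL-60. In U937 it stood at 2272 and 2575 with pLKO and at 3610 and 3638 with shRNF5 (0.58, adjusted p = 0.139). In HL-60 it stood at 2446, 2591 and 2498 with pLKO and at 2286, 2265 and 1707 with shRNF5 (-0.28, adjusted p = 0.167). The difference of the responses was 0.86 ± 0.23 SE (adjusted p = 0.0118), tested in 1 fit over all libraries, where 37.2% of the 11072 genes differed between these lines. In MOLM-13 *SIN3A* stood at 2166, 2705 and 2833 with pLKO and at 3191 and 2807 with shRNF5. Its paralog *SIN3B* stood at 1446, 1091 and 1107 with pLKO and at 1402 and 1280 with shRNF5 in MOLM-13, at 1674 and 1152 against 1120 and 1110 in U937, and at 591, 486 and 575 against 448, 517 and 450 in HL-60. *SIN3B* was called in no line, and only in U937 did its groups not overlap.

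Among the other Sin3 subunits, *ARID4A* and *SAP130* were called with opposite directions in U937 and HL-60. *ARID4A* encodes an AT-rich interaction domain protein first known for binding the retinoblastoma protein, and lies on chromosome 14 of GRCh37 from 58765222 to 58840605. It fell in U937 from 2612 and 2002 with pLKO to 1159 and 1327 with shRNF5 (-0.88 ± 0.25 SE, adjusted p = 0.0604). It rose in HL-60 from 1305, 1441 and 1486 with pLKO to 1683, 1927 and 2189 with shRNF5 (0.45 ± 0.13 SE, adjusted p = 0.0351). In MOLM-13 it stood at 2574, 2034 and 2270 with pLKO and at 2101 and 2479 with shRNF5, and the groups overlapped. The U937 response minus that of HL-60 was -1.33 ± 0.24 SE (adjusted p = 0.00154). This difference held without each U937 or HL-60 library in turn. *SAP130*, a large subunit without enzymatic activity on chromosome 2 from 128698791 to 128785694, went the opposite way. It rose in U937 from 551 and 498 with pLKO to 963 and 1009 with shRNF5 (0.91 ± 0.26 SE, adjusted p = 0.0591). It fell in HL-60 from 507, 505 and 444 with pLKO to 351, 391 and 262 with shRNF5 (-0.55 ± 0.17 SE, adjusted p = 0.0439). In MOLM-13 it stood at 551, 860 and 784 with pLKO and at 990 and 856 with shRNF5 (0.36, adjusted p = 0.426). The U937 and HL-60 responses of *SAP130* differed by 1.46 ± 0.29 SE (adjusted p = 0.00281). This too held without each U937 or HL-60 library in turn. In HL-60 both calls were lost without pLKO replicate 1 (adjusted p = 0.131 for *ARID4A* and 0.12 for *SAP130*) or shRNF5 replicate 3 (0.116 and 0.135). In U937 both were lost without pLKO replicate 2, shRNF5 replicate 1 or shRNF5 replicate 3, with adjusted p between 0.256 and 0.635.

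*SAP30*, which stabilises the binding of HDACs to Sin3, was called in no line but its response in MOLM-13 differed from both other lines. It stood at 1508, 1579 and 1386 with pLKO and at 1008 and 1137 with shRNF5 in MOLM-13. It stood at 668 and 728 with pLKO and at 1118 and 843 with shRNF5 in U937, and at 388, 424 and 407 against 510, 470 and 642 in HL-60. The libraries separated downward in MOLM-13 and upward in the other lines. In HL-60 its adjusted p was 0.0853 and its log2 fold change of 0.40 fell just short of the threshold. The remaining Sin3 subunits *SAP30L*, *SUDS3*, *BRMS1*, *BRMS1L*, *ARID4B*, *ING1* and *ING2* were called in no line. Of these, *BRMS1* stood at 1288, 1222 and 948 with pLKO and 796 and 874 with shRNF5 in MOLM-13, and at 394 and 473 against 673 and 535 in U937. *ARID4B* had an adjusted p of 0.0509 in HL-60 at a log2 fold change of 0.37, below the threshold of size.

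In PRC2, *PHF1* had the largest fall of the 39 genes in U937 and the largest rise in HL-60. *PHF1* encodes a Polycomb-like protein that helps PRC2 bind chromatin, and lies on chromosome 6 of GRCh37 from 33378176 to 33384230, where 12 bases of an exon overlap *CUTA* on the opposite strand. It fell in U937 from 1982 and 1026 with pLKO to 488 and 673 with shRNF5 (-1.31 ± 0.34 SE, adjusted p = 0.0465). It rose in HL-60 from 256, 262 and 278 with pLKO to 427, 371 and 520 with shRNF5 (0.71 ± 0.16 SE, adjusted p = 0.0131). In MOLM-13 it stood at 1174, 672 and 866 with pLKO and at 709 and 797 with shRNF5, with overlapping groups. The U937 and HL-60 responses differed by -2.03 ± 0.38 SE (adjusted p = 0.00204), the largest difference between lines among the 39 genes. This difference held without each U937 or HL-60 library. The HL-60 call also held without each library, whereas the U937 call was lost without pLKO replicate 2, shRNF5 replicate 1 or shRNF5 replicate 3 (adjusted p = 0.265, 0.622 and 0.196). In U937 the size rested in part on pLKO replicate 2, since without it the log2 fold change was -0.84.

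Of the catalytic subunits of PRC2, *EZH1* was called in U937 and HL-60 and *EZH2* in no line, and their responses were not tested against each other. *EZH1* fell in U937 from 1106 and 860 with pLKO to 408 and 658 with shRNF5 (-0.91 ± 0.31 SE, adjusted p = 0.0914). It fell in HL-60 from 561, 529 and 543 to 427, 363 and 443 (-0.41 ± 0.14 SE, adjusted p = 0.0567). In MOLM-13 it stood at 674, 489 and 697 with pLKO and at 615 and 706 with shRNF5, and the response there was higher than in U937 by 1.02 on the log2 scale (adjusted p = 0.0632). The U937 call was lost without any 1 of the 4 libraries (adjusted p from 0.129 to 0.708), and without shRNF5 replicate 1 the log2 fold change was -0.57. The HL-60 call was lost without pLKO replicate 1, pLKO replicate 3 or shRNF5 replicate 2 (adjusted p = 0.161, 0.156 and 0.133). *EZH2*, the paralog that predominates in dividing cells, stood at 2021, 2293 and 2139 with pLKO and at 2154 and 1953 with shRNF5 in MOLM-13, at 1460 and 2065 against 2336 and 2210 in U937, and at 2654, 2776 and 2571 against 2945, 2954 and 2623 in HL-60. The interval of its log2 fold change excluded 0.4 in MOLM-13 (-0.39 to 0.25) and HL-60 (-0.16 to 0.34) but not in U937 (-0.18 to 0.95).

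The PRC2 core subunit *EED*, which reads trimethylated lysine 27, rose in HL-60 from 647, 725 and 609 with pLKO to 812, 919 and 905 with shRNF5 (0.41 ± 0.13 SE, adjusted p = 0.0441). In MOLM-13 it stood lower in both shRNF5 libraries, at 961 and 954, than in the pLKO libraries, at 1351, 1381 and 1189 (-0.45, adjusted p = 0.205). In U937 it stood at 616 and 662 with pLKO and at 612 and 620 with shRNF5. The MOLM-13 and HL-60 responses differed by -0.86 ± 0.19 SE (adjusted p = 0.0288). The HL-60 call was lost without pLKO replicate 1 (adjusted p = 0.128), pLKO replicate 3 (0.167) or shRNF5 replicate 3 (0.115), and without shRNF5 replicate 2 its log2 fold change was 0.38, under the threshold of size. *SUZ12*, the scaffold of the PRC2 core, overlapped between groups in all 3 lines. It stood at 5511, 7453 and 7014 with pLKO and at 6328 and 6297 with shRNF5 in MOLM-13, at 3809 and 3943 against 3828 and 3709 in U937, and at 4187, 4096 and 4581 against 4560, 4843 and 3694 in HL-60. The partial copy *SUZ12P* was listed at 247 to 1470, so reads could be shared. *JARID2* and *PHF19*, accessory subunits of different PRC2 forms, were called in no line.

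In NuRD, the 2 calls of the fits per line were both in HL-60 and went opposite ways. *MBD3*, the methyl-CpG-binding-domain protein of one NuRD form, rose from 1031, 1460 and 1202 with pLKO to 1400, 1768 and 2004 with shRNF5 (0.48 ± 0.17 SE, adjusted p = 0.0638), although the lowest shRNF5 library lay below the highest pLKO library. *GATAD2A*, a linker of the NuRD core and the CHD ATPase on chromosome 19 from 19496635 to 19619741, fell from 2679, 2978 and 2717 to 1955, 2398 and 1739 (-0.47 ± 0.14 SE, adjusted p = 0.0353). The *MBD3* call was lost without pLKO replicate 1 (adjusted p = 0.216), pLKO replicate 3 (0.169), shRNF5 replicate 2 (0.133) or shRNF5 replicate 3 (0.207). The *GATAD2A* call was lost without pLKO replicate 3 (0.101) or shRNF5 replicate 3 (0.117). In MOLM-13 *MBD3* stood at 4873, 3844 and 3310 with pLKO and at 2786 and 2987 with shRNF5, a response that differed from that of HL-60 by -0.94 ± 0.26 SE (adjusted p = 0.0587). In U937 *MBD3* stood at 1723 and 2071 with pLKO and at 1989 and 1718 with shRNF5. *GATAD2A* was higher in every shRNF5 library than in the pLKO libraries of MOLM-13, at 4052 and 4155 against 3283, 3453 and 3499, and of U937, at 2666 and 2568 against 1375 and 1851. Its U937 value of 0.71 had an adjusted p of 0.1 and was not called. The *GATAD2A* response in HL-60 differed from that of U937 by 1.18 ± 0.22 SE (adjusted p = 0.00207) and from that of MOLM-13 by 0.74 ± 0.21 SE (adjusted p = 0.0628), in both cases with HL-60 lower.

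*CHD4*, the main ATPase of NuRD, and *MTA2*, a scaffold that binds HDAC1, were not called. *CHD4* stood at 9546, 10578 and 9832 with pLKO and at 11442 and 9803 with shRNF5 in MOLM-13, at 6652 and 5862 against 11570 and 7740 in U937, and at 9849, 9355 and 10433 against 10020, 10549 and 10216 in HL-60. *MTA2* stood at 4916, 5023 and 4698 with pLKO and at 5215 and 5362 with shRNF5 in MOLM-13, at 2163 and 2665 against 3755 and 3818 in U937, and at 3829, 4651 and 3989 against 3817, 4293 and 3651 in HL-60. In U937 the shRNF5 libraries lay above the pLKO libraries for both genes, with log2 fold changes of 0.60 (adjusted p = 0.184) and 0.66 (adjusted p = 0.11). The *MTA2* response differed between U937 and HL-60 by 0.74 ± 0.20 SE (adjusted p = 0.0129), in the fit over all libraries. The fit of U937 alone gave its response a larger SE, of 0.24. *MTA3*, *MBD2*, *CHD3* and *GATAD2B* were called in no line, and *CHD3* had an adjusted p of 0.0617 in HL-60 at a log2 fold change of -0.33.

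**Figure D3:**
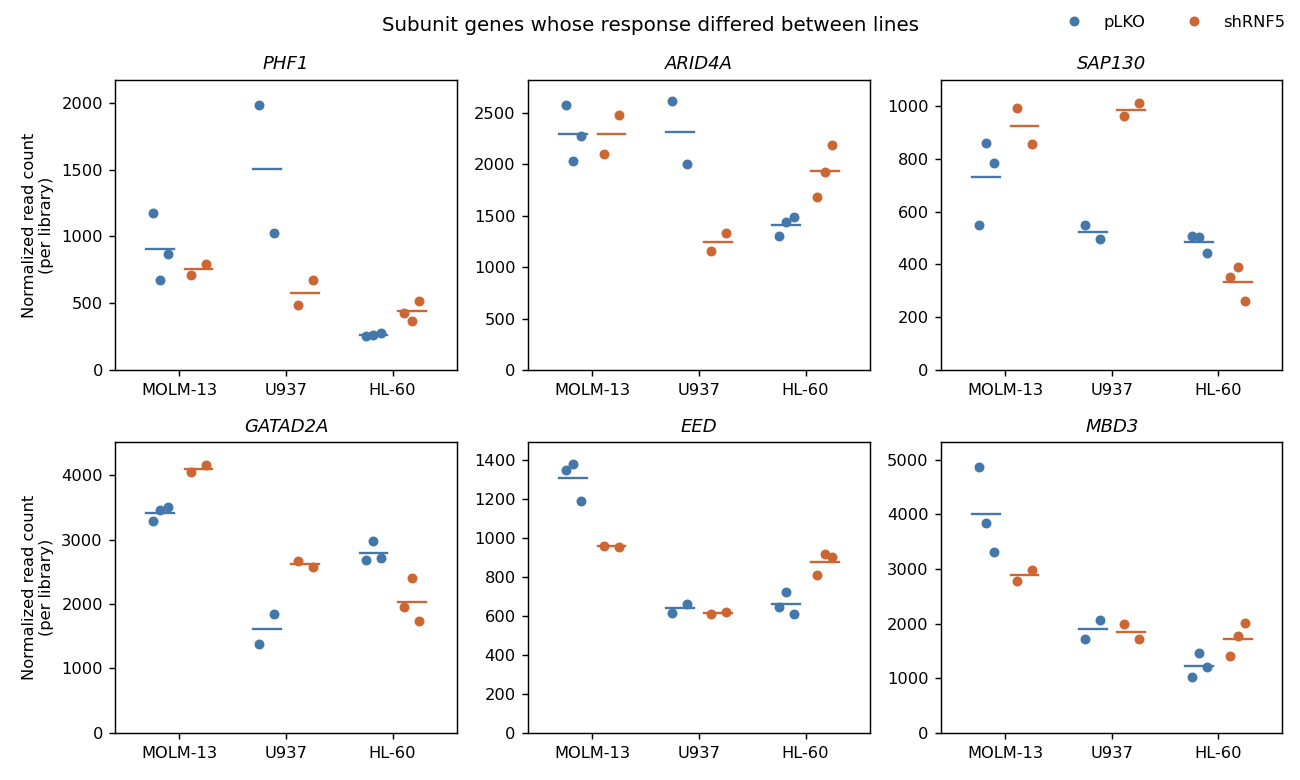
Normalized read count per library, from 0, for 6 subunit genes whose response differed between at least 2 lines. Points are libraries and bars are group means. *PHF1* and *ARID4A* run downward in U937 and upward in HL-60, *SAP130* and *GATAD2A* upward in U937 and downward in HL-60, and *EED* and *MBD3* downward in MOLM-13 and upward in HL-60.

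CoREST and NCoR subunits gave 1 call. *RCOR1*, the scaffold of CoREST on chromosome 14 from 103058986 to 103196898, fell in HL-60 from 2918, 2380 and 2908 with pLKO to 2432, 1783 and 1871 with shRNF5 (-0.44 ± 0.15 SE, adjusted p = 0.059), with 1 shRNF5 library inside the pLKO range. The call was lost without pLKO replicate 1 (adjusted p = 0.176), pLKO replicate 3 (0.192), shRNF5 replicate 2 (0.153) or shRNF5 replicate 3 (0.165). *RCOR1* stood at 2739, 3519 and 2864 with pLKO and 2823 and 2613 with shRNF5 in MOLM-13, and at 2473 and 1584 against 2072 and 1395 in U937. *KDM1A* stood at 3942, 3993 and 4384 with pLKO and at 3502, 2922 and 3474 with shRNF5 in HL-60, apart but with a log2 fold change of -0.32 that missed the threshold of size (adjusted p = 0.0867). It stood at 4516, 5499 and 4247 against 4598 and 3652 in MOLM-13 and at 3940 and 2990 against 4315 and 3031 in U937, with overlapping groups. *NCOR1*, the nuclear receptor corepressor, stood at 5224, 7646 and 8167 with pLKO and at 9656 and 8392 with shRNF5 in MOLM-13 (0.39, adjusted p = 0.367). It stood at 4361 and 4489 against 4366 and 4383 in U937, and at 2869, 2137 and 2584 against 2473, 2483 and 2354 in HL-60. *TBL1XR1*, the WD40 subunit of NCoR, stood at 6235, 6355 and 6409 with pLKO and at 5890 and 5925 with shRNF5 in MOLM-13. It stood at 5943 and 5329 against 4271 and 4580 in U937, and at 4812, 3738 and 4817 against 5061, 4516 and 3962 in HL-60. The *TBL1XR1* groups did not overlap in MOLM-13 and U937, where shRNF5 was lower, and no call was made (adjusted p = 0.702 and 0.361).

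**Figure D4:**
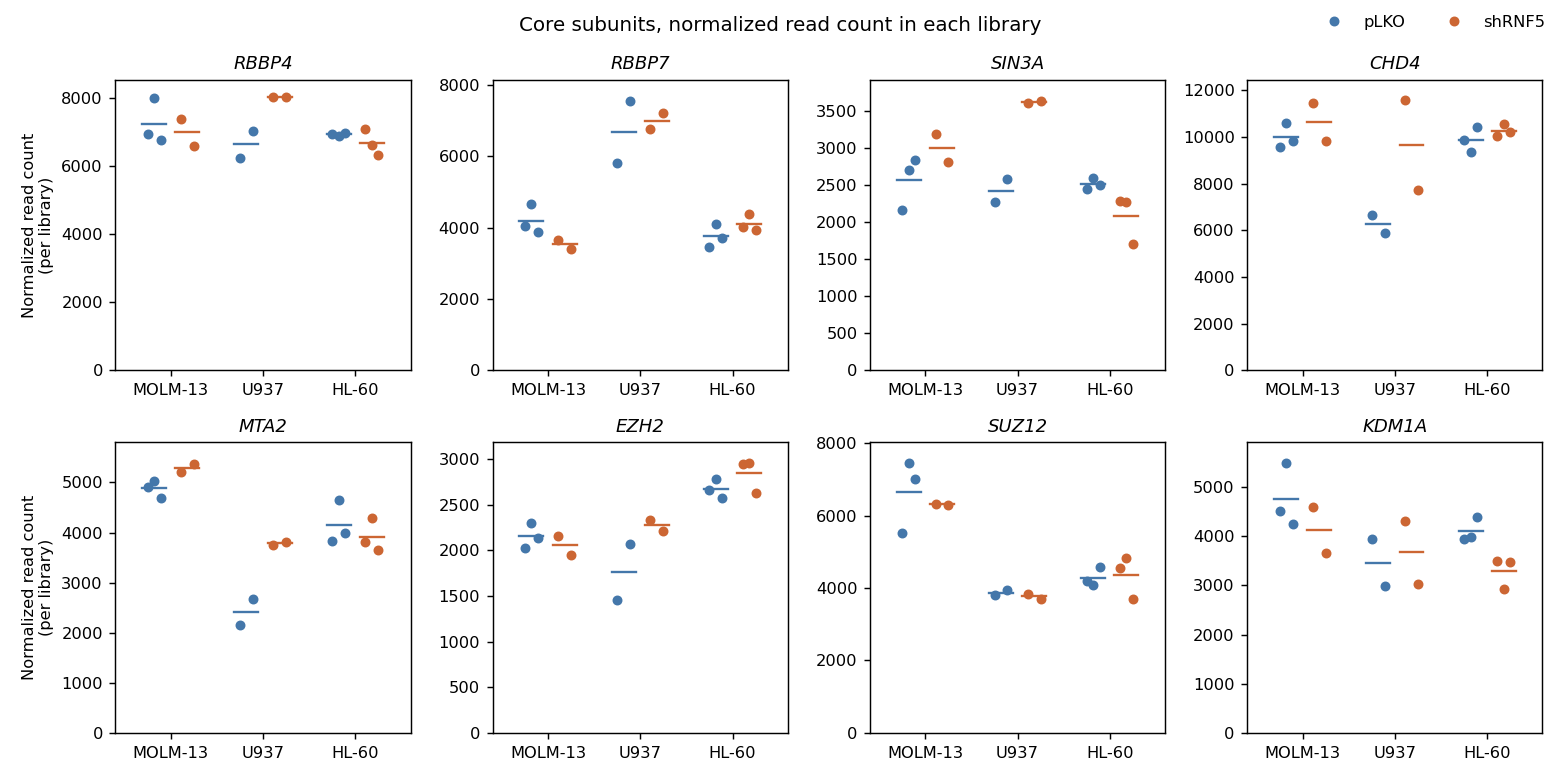
Normalized read count per library, from 0, for the core subunits *RBBP4*, *RBBP7*, *SIN3A*, *CHD4*, *MTA2*, *EZH2*, *SUZ12* and *KDM1A*. Points are libraries and bars are group means. None was called in any line. In U937 the shRNF5 points stand above the pLKO points for *RBBP4*, *SIN3A*, *CHD4*, *MTA2* and *EZH2*, as they do for *MTA2* in MOLM-13. They stand below the pLKO points for *SIN3A* and *KDM1A* in HL-60 and for *RBBP7* in MOLM-13. Of all genes tested, 59.2% in U937, 38.7% in MOLM-13 and 38.5% in HL-60 had groups that did not overlap.

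The 18 genes without a value per library by the rule for named genes were called in no line. Their log2 fold changes ran from -0.48 to 0.21 in MOLM-13, from -0.56 to 0.53 in U937 and from -0.33 to 0.40 in HL-60. Their groups did not overlap for 8, 9 and 6 of the 18 in these lines, against 38.7%, 59.2% and 38.5% of all genes. Their normalized read counts lay between 163, for *MTA3* in HL-60, and 8301, for *JARID2* in MOLM-13. In HL-60, marker values moved with the construct, since *MPO* stood at 105563 to 130372 with pLKO and at 141317 to 207430 with shRNF5, *PTPRC* at 3312 to 4266 against 4636 to 5272, and *CD33* at 1337 to 1505 against 959 to 1070. The B-cell gene *CD79A* stood at 22 to 34 against 38 to 44 there, and *SPI1* and *CEBPA* overlapped. In U937, *SPI1* stood at 1151 to 1962 with pLKO and at 759 to 991 with shRNF5, and *COL1A1* at 39 to 234 against 15 to 29, while *PTPRC*, *CD33*, *MPO* and *CEBPA* overlapped. In MOLM-13, the 5 myeloid genes overlapped between constructs. The part of these shifts in the HL-60 and U937 calls was not tested. In bulk RNA, fewer cells of a state and less RNA per cell cannot be told apart.

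Responses differed between lines for 15 of the 39 genes in 21 of the gene and line-pair tests. Between MOLM-13 and U937, 5 of 39 differed (12.8%), against 15.4% of the 11072 genes. Between MOLM-13 and HL-60, 5 of 39 differed (12.8%), against 8.82%. Between U937 and HL-60, 11 of 39 differed (28.2%), against 37.2%. The line pairs share libraries, so they are not independent of each other. The fit also gives all lines a shared spread per gene, which may understate that of U937. For *SIN3A*, *ARID4A*, *MTA2* and *GATAD2A* the SE in U937 alone was 0.232, 0.251, 0.238 and 0.249. The SE of their U937 and HL-60 difference was smaller, at 0.226, 0.235, 0.197 and 0.222. For *SAP130* and *PHF1* it was larger, at 0.292 and 0.379 against 0.257 and 0.336 in U937 alone. In 19 of the 21 the fitted fold changes of the paired lines had opposite signs. Values near 0 count here too, such as 7.5e-05 for *ARID4A* in MOLM-13 and -0.05 for *JARID2* in HL-60. The 21 were picked for a large difference, which favours opposite signs, and the share over all genes was not computed. The 6 differences that held without each of the 15 libraries were those of *SIN3A*, *SAP130*, *ARID4A*, *MTA2*, *GATAD2A* and *PHF1*, all between U937 and HL-60. Leaving out a MOLM-13 library bears on these differences only through the shared spread.

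Ratios between paralogs were computed within a library, per kilobase of reference transcript, so the scaling of a library drops out. Dividing by length suits reads spread along transcripts, as the directional poly(A) kit of the methods would give, and not 3′ tags, which the kit in the labels would give. Differences between groups in a ratio do not depend on this. As mean pLKO levels per kilobase, *RBBP7* lay between 1646.5 and 2931.0 and *MORF4L1* between 1700.3 and 2614.6 across the lines, while *MTA3* was the lowest of the 39 in each line, at 32.4 to 83.7. Per kilobase, *EZH2* stood at 2.30 and 4.19 times *EZH1* with pLKO in U937 and at 9.995 and 5.863 times with shRNF5. In HL-60 the ratio was 8.26, 9.16 and 8.27 with pLKO and 12.04, 14.21 and 10.34 with shRNF5, and in MOLM-13 the groups overlapped between 4.83 and 8.19. The *EZH2* share of the catalytic pair was thus higher with shRNF5 in U937 and HL-60 libraries, as a description without a test. *CHD4* stood at 1.46 to 1.63 times *CHD3* with pLKO and at 1.72 and 1.73 times with shRNF5 in MOLM-13. The ratio was 1.88 and 2.12 against 4.22 and 2.73 in U937, and 5.28 to 5.69 against 6.99 to 7.57 in HL-60, apart upward in all 3 lines. *RBBP4* stood at 0.494 to 0.505 times *RBBP7* with pLKO and at 0.583 and 0.559 with shRNF5 in MOLM-13. It stood at 0.310 and 0.269 against 0.342 and 0.322 in U937, and the groups overlapped in HL-60 between 0.436 and 0.580. The *MBD3* to *MBD2* ratio was lower with shRNF5 in MOLM-13 and U937 and higher in HL-60. The *SAP30* to *SAP30L* ratio was lower in MOLM-13 and higher in the other lines.

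**Figure D5:**
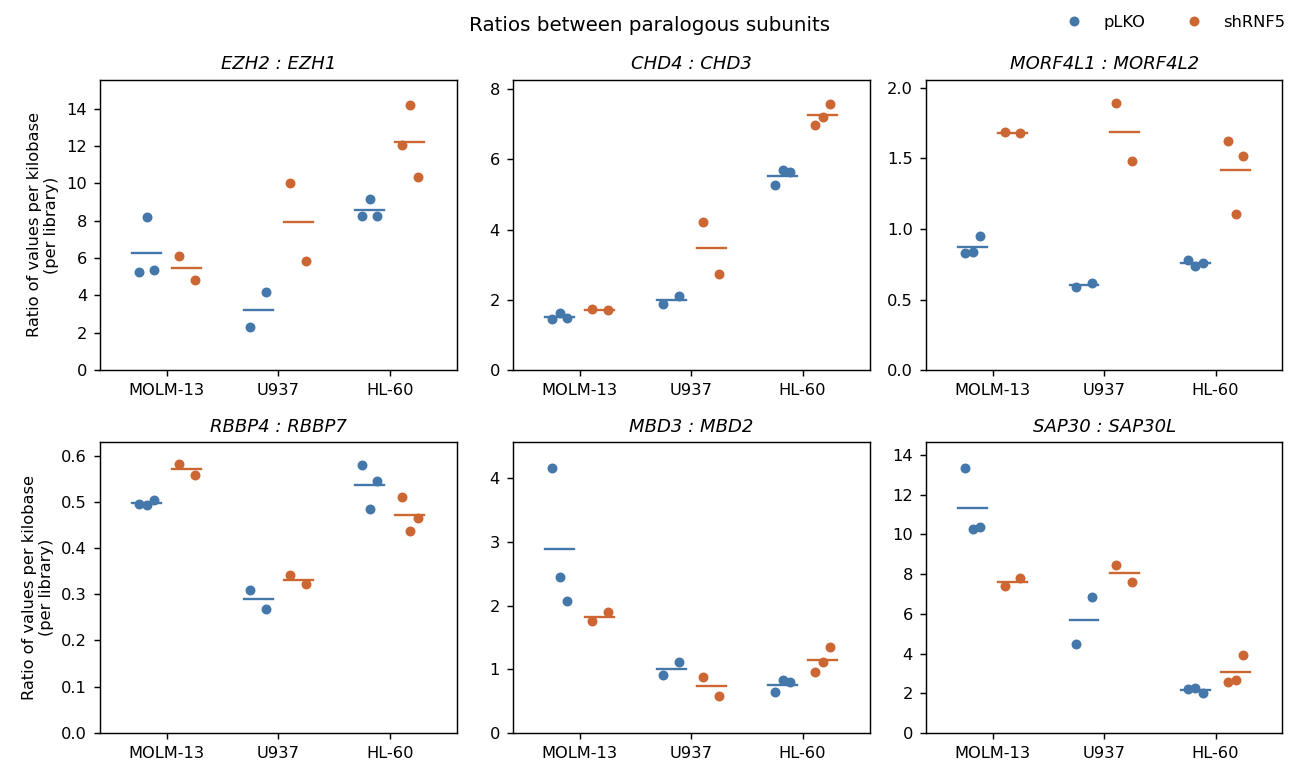
Ratio of the values per kilobase of 6 paralog pairs in each library, from 0. Points are libraries and bars are group means. *CHD4* to *CHD3* and *MORF4L1* to *MORF4L2* stand higher with shRNF5 in all 3 lines, *EZH2* to *EZH1* in U937 and HL-60.

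The widest such ratio shift involved *MORF4L2*, the paralog of *MORF4L1* and itself a Sin3-associated protein. *MORF4L2* fell in all 3 lines, from 4405, 5225 and 4775 to 3071 and 3028 in MOLM-13 (-0.65, adjusted p = 0.0853), from 7188 and 8952 to 3416 and 4758 in U937 (-0.99, adjusted p = 0.0511), and from 3993, 4509 and 4036 to 2685, 3771 and 2844 in HL-60 (-0.45, adjusted p = 0.0521). The *MORF4L1* to *MORF4L2* ratio was 0.829 to 0.949 with pLKO and 1.69 and 1.68 with shRNF5 in MOLM-13, 0.588 and 0.618 against 1.89 and 1.48 in U937, and 0.740 to 0.778 against 1.11 to 1.62 in HL-60. Its fall was already known when the list was drawn up, so it is a description. Of 9 other Sin3 genes, 1 was called in MOLM-13 (*MORF4L2*), 3 in U937 and 2 in HL-60, all down, where 1.01%, 8.74% and 12.3% of all genes were called down.

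The catalytic partners *HDAC1*, *HDAC2* and *HDAC3* were called in no line. *HDAC1* was 0.08, 0.51 and 0.10 on the log2 scale in MOLM-13, U937 and HL-60, *HDAC2* was -0.21, 0.33 and 0.15, and *HDAC3* was 0.00, 0.09 and 0.24. Of 71 genes in the 8 lists of further subunits and of related complexes, 66, 67 and 65 were tested in MOLM-13, U937 and HL-60, with 1, 13 and 12 called, against 2.04%, 15.7% and 25.9% of all genes. In PRC1, which acts beside PRC2, *RNF2*, *CBX6* and *RYBP* rose and *CBX7* fell among 18 genes in U937. In HL-60, *BMI1* rose and *CBX6* and *PHC1* fell. The 8 other NuRD genes gave rises of *CDK2AP1* and *PWWP2B* in HL-60, and the 4 other PRC2 genes gave falls of *C17orf96* and *C10orf12* there. Of other CoREST and NCoR genes, *PHF21A*, *CTBP1*, *ZMYM2* and *ZMYM3* fell in U937 and *TBL1X* fell in HL-60. Of 5 further partners of SAP18 and of the exon junction, *EIF4A3* and *MAGOH* rose in U937, and the 9 genes of other complexes with RBBP4 or RBBP7 gave no call. *CBX6*, a chromodomain subunit of PRC1, rose in U937 from 1601 and 1817 with pLKO to 3498 and 2471 with shRNF5 (0.79, adjusted p = 0.0862). It fell in HL-60 from 2001, 1977 and 2094 to 1236, 1392 and 1208 (-0.66, adjusted p = 0.00473).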

How the data were processed

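RNA-seq of 15 libraries was grouped by the cell line, construct and replicate number in the sample labels. Reads were mapped to hg19 and counted with featureCounts (Subread), as the submitters' processing notes give it, and the methods name STAR for mapping and SARTools with edgeR for scaling. In unit terms the deposited values are a score: counts which the authors scaled by a factor per library within each line and rounded to whole numbers, with genes under their filter listed at 0. The labels name a 3′ tag kit and the methods a directional poly(A) kit. The depth per library was taken from the steps between neighbouring values. It limits low genes most, and no counting interval is given because the values are not counts.

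Per line, limma 3.58.1 in R 4.3.3 was fitted to log2(value + 1), with moderated variances that follow a mean-variance trend, over genes that were above 0 somewhere in that line. Differences between lines were contrasts in 1 fit of 6 groups over 11072 genes, with a spread per gene that all lines share. P-values were Benjamini-Hochberg adjusted over all genes tested. A call needed an adjusted p under 0.1 and, within a line, an absolute log2 fold change over 0.4.

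The 39 genes, their roles, the other gene lists and the tests were chosen with earlier results of these data known. Genes named with a value per library are those called in any line and 15 core subunits. From the other lists, they are *HDAC1* to *HDAC3* and genes called in at least 2 lines. Values of *SAP30*, *BRMS1* and of some markers were added after they had been seen. Results for some genes of the other lists and markers are not reported here. Positions and transcript lengths came from GENCODE on GRCh37, and promoters from RefSeq on GRCh38.p14. Python 3 scripts with pandas and matplotlib made tables and figures. Alternatives were other thresholds, a pseudocount of 0.5 or 10, a minimum mean of 50, other scalings and variance settings, library weights, a length correction, 1 fit over all libraries, a replicate block, and leaving out each library.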

Additional observations from a re-analysis of the deposited data

Results flagged for a closer look

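These are the differences between lines in the response to shRNF5, each past an adjusted p of 0.1 in the limma fit over all 15 libraries. Values are differences of log2 fold changes, the first line minus the second.

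Between MOLM-13 and U937, *SAP30* differed by -0.95 (adjusted p = 0.0362), *BRMS1* by -0.93 (0.0701), *ARID4A* by 0.88 (0.0421), *EZH1* by 1.02 (0.0632) and *PHF1* by 1.09 (0.0978). Between MOLM-13 and HL-60, *SAP30* differed by -0.87 (0.0494), *SAP130* by 0.91 (0.0761), *MBD3* by -0.94 (0.0587), *GATAD2A* by 0.74 (0.0628) and *EED* by -0.86 (0.0288). None of these 10 was past the threshold in every fit that left out 1 library, and the adjusted p reached between 0.164 for *EED* and 0.377 for *PHF1*. *PHF1* in MOLM-13 against U937 was kept in 3 of the 15 such fits.

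Between U937 and HL-60, *SIN3A* differed by 0.86 (0.0118), *SAP130* by 1.46 (0.00281), *ARID4A* by -1.33 (0.00154), *MTA2* by 0.74 (0.0129), *GATAD2A* by 1.18 (0.00207) and *PHF1* by -2.03 (0.00204). These 6 were past the threshold in all 15 fits that left out a library and under all 7 other settings. For this line pair, leaving out a MOLM-13 library acts only through the shared spread. *ARID4B* differed by -0.55 (0.064), *MBD2* by 0.55 (0.0805), *CHD4* by 0.54 (0.0866), *EED* by -0.47 (0.0987) and *JARID2* by 0.58 (0.092), and these 5 were lost in 4 to 11 of the 15 fits. Among all 11072 genes, 37.2% differed between U937 and HL-60.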

How the results depend on the processing

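Over the settings other than leaving out a library, the number of genes called among the 39 stayed within 1.5 times its value except in these cases. In MOLM-13 it went from 1 to 4 with library weights. In U937 it went from 5 to 2 at an adjusted p under 0.05, to 0 without the mean-variance trend of limma (6 of the 39 at an unadjusted p under 0.05, and 475 of all genes called) and to 16 in 1 fit over all 15 libraries. In HL-60 it went from 10 to 6 with a correction for transcript length. The number of genes whose response differed between lines went from 5 to 2, from 5 to 2 and from 11 to 6 at an adjusted p under 0.05 (MOLM-13 and U937, MOLM-13 and HL-60, U937 and HL-60), and from 5 to 3 with the length correction for MOLM-13 and HL-60. Leaving out 1 library gave 0 to 1 call in MOLM-13 (1 to 8 at an unadjusted p under 0.05), 0 to 6 in U937 (2 to 12) and 4 to 11 in HL-60, and 0 to 10, 0 to 6 and 6 to 11 differences in the same order of line pairs. Where this left 1 library in a group, that library was assumed to vary like the others. Of the 16 calls, 3 held without each library (*SAP18*, *MORF4L1* and *PHF1* in HL-60), and none of the 16 turned direction under the settings run. The cause of these moves was not tested.

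Over all genes, the calls in MOLM-13 numbered 266, but 39 at an adjusted p under 0.05, 55 without the trend, 2224 with library weights and 1 to 872 without a library. In U937 they numbered 2062, but 824 at an adjusted p under 0.05, 3994 in 1 fit and 0 to 2369 without a library, with 44.2% upward, or 34.1% without the trend and 54.1% in the single fit. In HL-60 they numbered 3251 and 1970 to 3413 without a library. In MOLM-13 33.3% of calls were upward at an adjusted p under 0.05, against 50.4%.

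Whether replicate numbers pair the libraries could not be decided, and the main fits used no replicate block. Where a group holds 2 libraries, their deviations mirror each other. Correlations in MOLM-13 and U937 therefore come in pairs of opposite sign and cannot settle it. Deviations of same-numbered libraries correlated at -0.173 and -0.53 in MOLM-13, 0.256 in U937 and 0.505, 0.156 and -0.109 in HL-60. With a replicate block the calls among the 39 stayed at 1 in MOLM-13 and 10 in HL-60, and those over all genes went to 738 and 3580. In U937, no paired analysis was possible because its groups share 1 replicate number. Groups of 2 or 3 libraries and the estimated depth limit what could be detected, most in U937.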
